A study of Mus musculus with 17 samples.

Results

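The clustered histone genes are the replication-dependent histone genes of the Hist1, Hist2, Hist3 and Hist4 clusters, and they were examined here through the accessible regions next to them. A region was taken when the gene symbol paired with it in the table began with Hist1h, Hist2h, Hist3h or Hist4h and its distance to that gene's transcription start was at most 10000 bp. This rule used no measured value and found 48 of the 66177 regions. Of these, 44 lay on chromosome 13 (Hist1), 2 on chromosome 3 (Hist2) and 2 on chromosome 11 (Hist3), and none belonged to Hist4. There were 39 distinct gene symbols, 32 regions lay within 1000 bp of a start and 16 lay farther away. Regions are named by the gene they were paired with, and by their distance to its start where a gene had several. Another 10 regions carried a clustered histone symbol beyond 10000 bp and were not included, the nearest of them at 10412 and 10076 bp from Hist4h4.

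Histone proteins package DNA into nucleosomes. The core histones H2A, H2B, H3 and H4 form the nucleosome particle, and the linker histone H1 binds the DNA between particles. The clustered genes are transcribed mainly in S phase, when new DNA needs new nucleosomes, and their short mRNAs lack introns and end in a stem-loop in place of a poly(A) tail. Many H2A and H2B genes stand head to head and share a promoter. In B cell differentiation the naive B cell is resting, the germinal center B cell divides rapidly and the plasma cell of the bone marrow has left the cell cycle.

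Open chromatin was profiled by ATAC-seq, in which a transposase inserts sequencing adapters where DNA is accessible. The cells were sorted, with naive B cells (nB, B220+GL7-Fas-) and germinal center B cells that bind phycoerythrin (GCB, B220+GL7+Fas+) coming from lymph node and plasma cells (BMPC, CD138+) from bone marrow. Mice were young adults of a B6;129S4 background, and every mouse carried floxed alleles of both de novo DNA methyltransferase genes, Dnmt3afl/flDnmt3bfl/fl. Controls (C) carried no Cre, and Dnmt3-deficient mice (KO) carried 1 Cre allele that acts in the B lineage. The libraries comprised 3 C and 2 KO of nB from unimmunized mice, 2 C and 4 KO of GCB and 3 C and 2 KO of BMPC, with GCB and BMPC taken 30 days after immunization with phycoerythrin. Each GCB library was a pool of 2 mice, and the others came from 1 mouse each. The nB libraries were all male, the BMPC libraries all female and the GCB pools of either sex, so that sex and cell type cannot be told apart for nB against BMPC.

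A deposited value (RPPM) is a region's reads scaled so that all regions of the library sum to 1000000. The libraries held 4104875 to 6079018 reads in regions in nB, 907959 to 2280954 in GCB and 5357687 to 8232313 in BMPC, so that 3 reads, taken as the floor for a value of 0, corresponded to 0.494 to 0.731, 1.32 to 3.30 and 0.364 to 0.560 RPPM. GCB libraries were thus the shallowest, and the mitochondrial regions took 7.43% to 10.1% of their reads against 2.56% to 4.59% in the others. The parts of depth and mitochondrial reads in the differences below were not tested. Of the markers of the labelled cell types, Fcer2a (nB) held 42.4 ± 5.09, 14.3 ± 0.316 and 1.20 ± 1.02 RPPM at its start in nB, GCB and BMPC of C mice, Gcsam (GCB) held 0.580 ± 0.344, 20.95 ± 6.45 and 5.49 ± 0.769, and Tnfrsf17 (BMPC) held 0.392 ± 0.306, 1.35 ± 0.582 and 19.995 ± 2.30 (SD, n = 3, 2 and 3). Each was highest in the cell type it marks. Other markers went against the labels, as Bcl6 (GCB) was lower in GCB than in nB (log2 fold change -1.38, called) and Irf4 (BMPC) was lower in BMPC than in nB (-0.37, limma adjusted p = 0.00712). Of the markers of other lineages, no T cell gene had a region at its start, 1 of 4 myeloid genes had one (Itgam, summing to 3.72 to 5.31 RPPM per library in nB, 0.937 to 2.63 in GCB and 0.560 to 1.43 in BMPC), and 1 of 3 erythroid genes had one (Klf1, 40.7 to 55.3, 27.7 to 39.8 and 56.9 to 66.8 RPPM). In bulk libraries a smaller share of cells with open chromatin and less accessibility per cell cannot be told apart.

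In the GENCODE annotation of mm9, 67 protein-coding genes belong to these clusters, and the starts of 43 fell inside one of the 48 regions. By class these were 4 of 6 H1 genes, 12 of 19 H2A genes, 13 of 18 H2B genes, 7 of 11 H3 genes and 7 of 13 H4 genes. In 11 regions there were at least 2 starts. The 250 bases before a start are shown for Hist1h1a and Hist1h1d, linker histone genes whose regions were less open in GCB than in nB, for Hist1h4b, which was least open in BMPC, for Hist3h2ba, which differed between genotypes, and for Hist1h2ac, where these bases fill the whole interval up to the start of the H2B gene Hist1h2bc on the other strand. The Hist1h1a window was read from chr13:23855287-23855536 of mm9 (plus strand), Hist1h1d from chr13:23646651-23646900 (plus), Hist1h4b from chr13:23848556-23848805 (plus), Hist3h2ba from chr11:58762163-58762412 (plus) and Hist1h2ac from chr13:23775818-23776067 (minus). Capitals mark the octamer ATTTGCAT, the CCAAT box CCAAT, the TATA box TATAAA and GGTCCG, the core of an element of H4 promoters, on either strand.
Hist1h1a: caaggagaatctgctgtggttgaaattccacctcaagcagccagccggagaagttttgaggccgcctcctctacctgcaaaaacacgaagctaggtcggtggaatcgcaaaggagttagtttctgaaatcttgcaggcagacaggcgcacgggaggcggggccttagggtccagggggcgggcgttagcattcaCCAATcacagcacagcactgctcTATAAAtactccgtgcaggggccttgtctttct
Hist1h1d: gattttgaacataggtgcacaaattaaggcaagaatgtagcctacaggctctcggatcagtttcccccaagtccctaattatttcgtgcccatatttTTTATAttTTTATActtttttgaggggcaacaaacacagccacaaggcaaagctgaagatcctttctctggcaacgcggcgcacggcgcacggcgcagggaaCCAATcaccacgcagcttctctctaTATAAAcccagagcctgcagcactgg
Hist1h4b: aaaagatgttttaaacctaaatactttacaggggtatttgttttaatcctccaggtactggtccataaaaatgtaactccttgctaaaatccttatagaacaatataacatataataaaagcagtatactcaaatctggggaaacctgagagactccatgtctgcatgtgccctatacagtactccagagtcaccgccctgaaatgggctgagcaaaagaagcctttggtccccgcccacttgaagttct
Hist3h2ba: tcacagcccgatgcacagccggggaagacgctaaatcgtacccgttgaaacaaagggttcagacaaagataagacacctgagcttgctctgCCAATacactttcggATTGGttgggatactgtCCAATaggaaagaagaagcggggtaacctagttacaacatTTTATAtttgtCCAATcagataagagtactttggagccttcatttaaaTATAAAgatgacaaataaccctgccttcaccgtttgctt
Hist1h2ac: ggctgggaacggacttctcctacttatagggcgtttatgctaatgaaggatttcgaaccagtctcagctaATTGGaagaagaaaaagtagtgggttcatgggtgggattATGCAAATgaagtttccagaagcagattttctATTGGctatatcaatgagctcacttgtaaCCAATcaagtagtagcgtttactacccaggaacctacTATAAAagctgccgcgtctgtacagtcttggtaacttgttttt

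Among the 43 genes, CCAAT or its complement was present in 88.4% of these windows, against 34.5% of the windows of 8827 other protein-coding genes whose start lay in a region. TATAAA was present in 58.1% against 5.15%, and the octamer in 27.9% against 1.46%. The octamer was found at 6 of 12 H2A and 6 of 13 H2B genes and at no H1, H3 or H4 gene, whereas GGTCCG was found at 5 of 7 H4 genes and in 16.3% of all 43, against 13.2% of the other genes. Windows of genes that stand head to head overlap, so that the same site can be counted for both genes. This was so for the octamer of Hist1h2ac and Hist1h2bc, whose windows are identical. Nearest to their starts, TATAAA began 33 bases before the start of Hist1h1a, 26 before Hist1h1d, 39 before Hist3h2ba and 43 before Hist1h2ac. None of these letters occurred in the window of Hist1h4b. A match of letters is a description and does not show that a factor binds.

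The 32 regions within 1000 bp of a start had a median width of 924.5 bp, close to the 938 bp of the 14979 other regions within 1000 bp of a start. Per 100 bp they held a median of 5.55 RPPM over all libraries, and each of the 32 lay above the median of 2.97 RPPM per 100 bp of the other start regions. By class of the paired gene, the median level per 100 bp was 3.86 RPPM for H1 (4 regions), 5.90 for H2A (8), 5.88 for H2B (7), 5.91 for H3 (5) and 5.19 for H4 (8). As whole regions, the highest mean of each class was 136.8 RPPM at Hist1h4a, 134.8 at Hist1h2ac, 114.5 at Hist1h3c, 99.0 at Hist1h2be (which also holds the H1 start of Hist1h1e) and 58.5 at Hist1h1d. The lowest were 11.2 RPPM at Hist1h4h (492 bp from the start), 13.8 at Hist1h1b, 27.3 at Hist1h3b, 30.3 at Hist1h2af and 38.2 at Hist3h2ba. Widths contributed to this order, as Hist1h4a held 7.04 RPPM per 100 bp and Hist1h2ac 6.23, against 3.40 at Hist1h1b and 3.56 at Hist1h4h. The 16 regions farther from a start held a median of 1.98 RPPM per 100 bp.

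In each library the median RPPM of the 32 start regions was divided by the median RPPM of the other start regions, which removes the scale of the library. The ratio was 2.17, 2.23 and 2.11 in the C nB libraries and 2.22 and 2.33 in the KO nB libraries. In GCB it was 1.84 and 1.75 in C libraries and 1.43, 1.81, 1.56 and 1.88 in KO libraries, and in BMPC it was 1.40, 1.41 and 1.47 in C libraries and 1.36 and 1.497 in KO libraries. All 5 nB libraries lay above all 11 others, the C libraries of GCB lay above those of BMPC, and the KO libraries of GCB and BMPC overlapped. Unscaled, the summed RPPM of all 48 regions was 2780 ± 47.1, 1911 ± 62.5 and 2190 ± 53.0 in nB, GCB and BMPC of C mice (SD, n = 3, 2 and 3), and 2849 ± 29.2, 1826 ± 91.4 and 2029 ± 3.11 in KO mice (n = 2, 4 and 2).

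**Figure D1:**
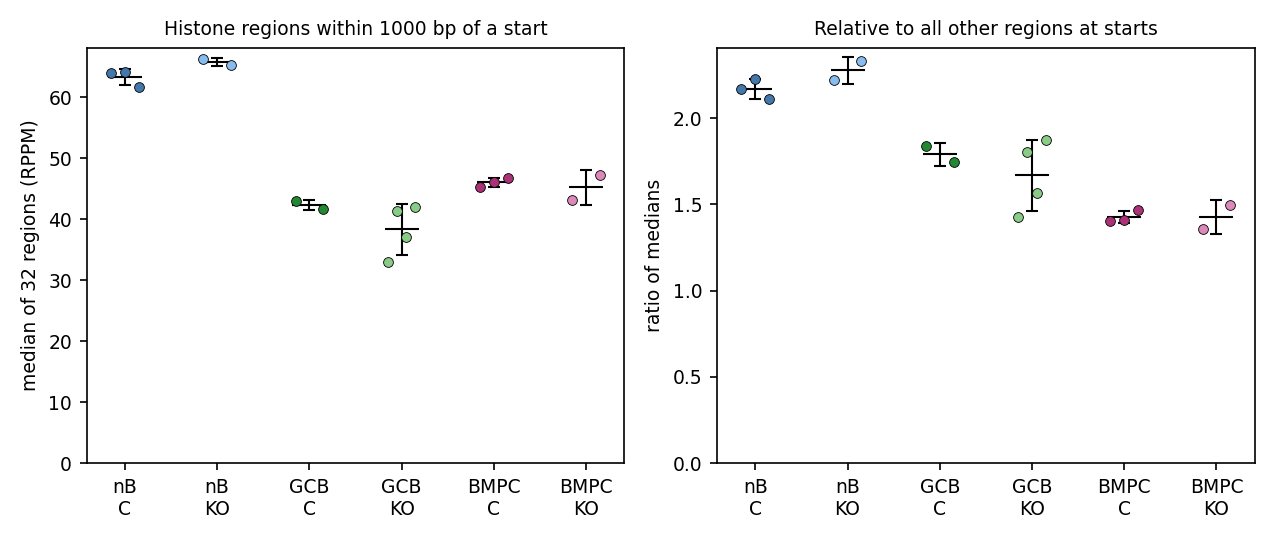
Each point is a library, with groups on the x axis and the horizontal bar and whiskers giving the group mean ± SD. The left panel plots the median RPPM of the 32 histone regions within 1000 bp of a start, and the right panel that median divided by the median of all other regions within 1000 bp of a start; in both panels all 5 nB libraries lie above all others.

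To determine which regions differed between cell types, log2(RPPM + 1) values were compared by limma, with Benjamini-Hochberg adjustment over all 66177 regions. Regions are said to have fallen or risen where the adjusted p did not exceed 0.01, and to be called when they also changed at least 2-fold. Fold changes in log2 are on this scale and understate the change of low regions. From nB to GCB in C mice, 9 of the 48 regions were called lower and 1 higher, against 8.47% and 14.2% of all regions. Without the limit on size, 27 fell and 1 rose, against 14.6% and 16.3% of all regions. Of the 32 regions within 1000 bp of a start 19 fell and none rose, against 25.1% and 12.8% of the other start regions. The median log2 fold change was -0.57 over the 48 regions, -0.17 over the other start regions and 0.05 over all regions. The C nB and C GCB libraries did not overlap in 39 regions lower and 3 higher in GCB, against 30.6% and 33.8% of all regions.

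Among start regions the decrease in GCB was largest at the linker histone gene Hist1h1a. Its region (chr13:23855241-23855883, over its start) held 35.6, 37.7 and 30.1 RPPM in C nB and 17.2 and 10.3 in C GCB, and 28.2, 39.0 and 34.1 in C BMPC. Both GCB libraries lay below every nB and BMPC library, which overlapped each other. The log2 fold change from nB to GCB was -1.30 ± 0.194 (SE, adjusted p = 4.7e-06) by limma, and the rise from GCB to BMPC was 1.27 ± 0.194 (adjusted p = 4.17e-06). Without C pool M1, the lower of the GCB libraries, these values were -0.96 and 0.93 and fell short of 2-fold. Under promoter centring, which sets the median of the other start regions equal in all libraries, the rise was 0.83.

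Hist1h1d, which encodes another linker histone, fell in GCB and stayed low. Its region (chr13:23646778-23648381) held 88.4, 92.7 and 80.8 RPPM in C nB, 40.9 and 43.1 in C GCB and 48.1, 52.7 and 55.0 in C BMPC. The nB libraries lay above all others. The log2 fold change was -1.04 ± 0.12 to GCB (limma adjusted p = 9.13e-08) and -0.74 ± 0.107 to BMPC (adjusted p = 1.25e-06). The change to GCB was at the limit of 2-fold, at -0.99 without nB replicate 2, -0.999 without C pool F2 and -0.74 under promoter centring. The region paired with Hist1h2be (chr13:23712661-23714738), which also holds the start of the linker histone gene Hist1h1e, had 147, 154 and 151 RPPM in C nB against 73.0 and 78.7 in C GCB and 81.2, 86.1 and 86.7 in C BMPC. The Hist1h2be start in it is that of a 37353-base transcript whose coding sequence begins 35138 bases downstream. That of Hist1h1e begins 5 bases from its start, so that the region is not an H2B promoter alone. Every nB library was far above the others, and the log2 fold change was -0.98 ± 0.0995 to GCB (limma adjusted p = 9.7e-09) and -0.82 ± 0.089 to BMPC (adjusted p = 8.09e-09). The remaining H1 start, Hist1h1b, had means of 15.9 ± 3.71 RPPM in nB and 9.04 ± 1.52 in GCB of C mice (SD, n = 3 and 2), with a log2 fold change of -0.74 that did not pass (limma adjusted p = 0.0145).

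Of the core histone genes, the H2B gene Hist1h2bh held 66.3, 67.8 and 63.5 RPPM in C nB, 36.5 and 26.7 in C GCB and 43.3, 46.5 and 45.6 in C BMPC. The 3 cell types did not overlap, in the order nB, BMPC, GCB. Its log2 fold change to GCB was -1.05 ± 0.157 (limma adjusted p = 4.88e-06). C pool F2 alone, at 36.5 RPPM, lay less than 2-fold below every C nB library. Promoter centring moves this change up by the shift given below for nB to GCB, which leaves it short of 2-fold. The region 492 bp from the H4 gene Hist1h4h was called lower as well, at 15.6, 15.1 and 15.1 RPPM in C nB against 6.16 and 7.03 in C GCB (-1.10 ± 0.215, limma adjusted p = 0.00016), and it was short of 2-fold with a pseudocount of 5 RPPM (-0.81) and under promoter centring (-0.81). Start regions shared by H2A and H2B pairs changed less, at -0.50 ± 0.0937 for Hist1h2ac with Hist1h2bc and -0.75 ± 0.0972 for Hist1h2ae with Hist1h2bg. Both fell (limma adjusted p = 9.29e-05 and 5.8e-07) without reaching 2-fold. Beyond 1000 bp of a start, the called decreases were 3 regions that were called higher again in BMPC and 2 regions with few reads, near Hist1h1c (7.49 RPPM on average in C nB and 2.02 in C GCB, -1.52 ± 0.3, limma adjusted p = 0.000177) and 5291 bp from Hist1h1a. The Hist1h1c call was lost with the replicate block of GCB pools (-1.21, adjusted p = 0.0283) and with a pseudocount of 5 RPPM (-0.84). The region 5291 bp from Hist1h1a held 2 and 1 reads in the C GCB libraries, under the floor, and its fitted change depends on the pseudocount (-1.35 ± 0.416, limma adjusted p = 0.00987). This call was lost when any C nB library was left out (limma adjusted p = 0.0166 to 0.0354). It was lost as well under promoter centring and with the replicate block (limma adjusted p = 0.0389 and 0.0283).

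Only 3 of the 32 start regions had a higher mean in C GCB than in C nB, and none of them passed. The H3 gene Hist1h3g held 33.6, 28.8 and 24.9 RPPM in C nB and 35.6 and 37.5 in C GCB, both above every nB library (log2 fold change 0.33 ± 0.161, limma adjusted p = 0.103). The H3 gene Hist1h3b (0.30 ± 0.167, limma adjusted p = 0.151) and the H2A gene Hist1h2af (0.13 ± 0.146, adjusted p = 0.495) were the others. All 3 were then lower in BMPC than in GCB, by -0.52, -0.55 and -0.47 (limma adjusted p = 0.0087, 0.00715 and 0.00897).

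**Figure D2:**
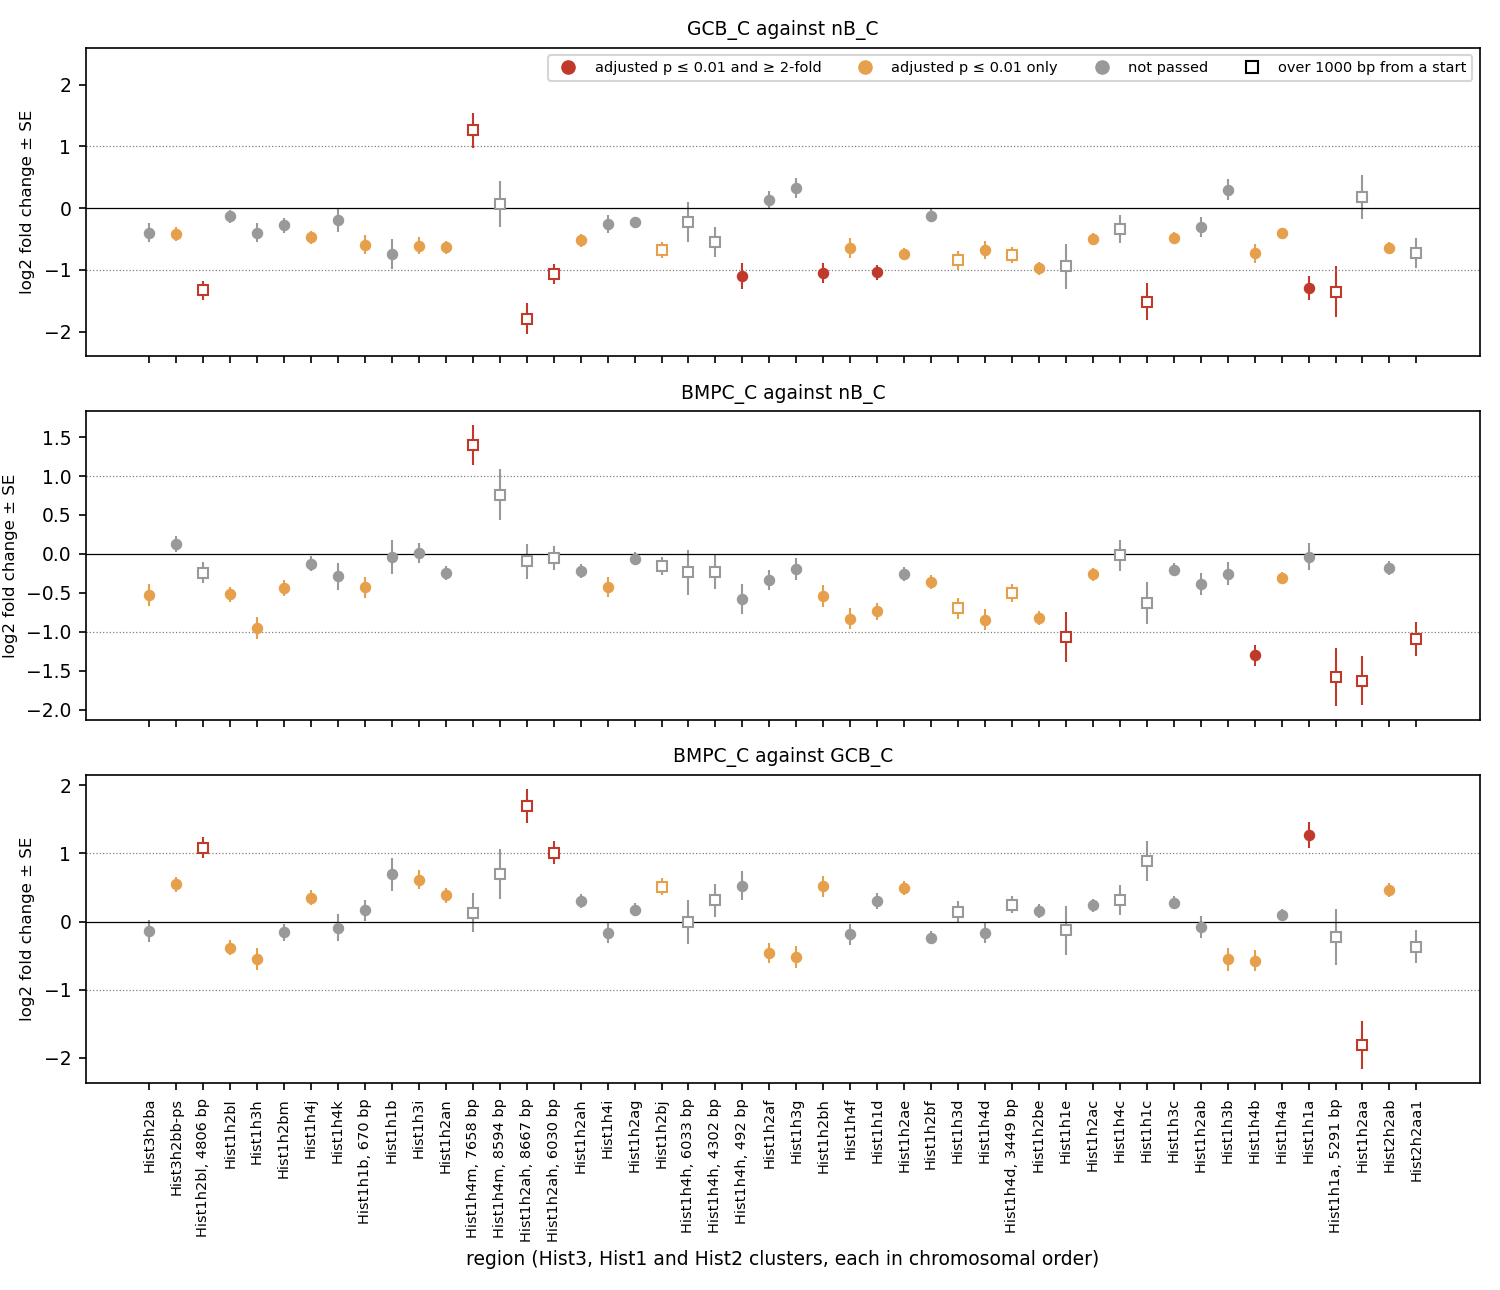
The log2 fold change (y axis, ± SE) of each of the 48 regions (x axis, in chromosomal order within each cluster) between C groups, with circles for regions within 1000 bp of a start and squares for the others; red marks called regions, orange those that passed the adjusted p alone, and dotted lines 2-fold changes. Most points lie below 0 in the top panel and the middle panel, and they spread to either side of 0 in the bottom panel.

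From nB to BMPC in C mice, 5 regions were called lower and 1 higher, against 20.1% and 18.0% of all regions, so that called members were fewer than in the table as a whole. Without the limit on size, 21 fell and 1 rose, against 23.5% and 22.3% of all regions. Among the 32 start regions 15 fell and none rose, whereas 10.4% of the other start regions fell and 20.7% rose. The median log2 fold change of the 48 regions was -0.30, that of the other start regions was 0.11. The C libraries did not overlap in 35 regions lower and 2 higher in BMPC, against 33.5% and 34.7% of all regions.

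Hist1h4b was the start region called lower in BMPC. It held 55.8, 59.5 and 59.9 RPPM in C nB, 37.4 and 32.3 in C GCB and 18.7, 21.9 and 29.9 in C BMPC, in a region over the start (chr13:23848692-23849270). The 3 cell types did not overlap and fell in this order. The log2 fold change to BMPC was -1.30 ± 0.14 (limma adjusted p = 6.53e-09), and the steps from nB to GCB and from GCB to BMPC were -0.73 ± 0.156 (adjusted p = 0.000413) and -0.57 ± 0.156 (adjusted p = 0.00321). The H3 gene Hist1h3h went the same way, with 39.0, 43.3 and 36.3 RPPM in C nB, 29.9 and 29.5 in C GCB and 21.98, 19.2 and 18.8 in C BMPC, and -0.95 ± 0.142 from nB to BMPC (limma adjusted p = 2.01e-06).

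The other called decreases in BMPC lay beyond 1000 bp of a start and at low levels. The region near Hist2h2aa1 fell from 11.7, 12.2 and 13.2 to 4.55, 6.75 and 4.67 RPPM (log2 fold change -1.10 ± 0.219, limma adjusted p = 0.000101). The regions near Hist1h1e (-1.07 ± 0.322, limma adjusted p = 0.00587), 5291 bp from Hist1h1a (-1.58 ± 0.372, adjusted p = 0.000673) and near Hist1h2aa (-1.63 ± 0.316, adjusted p = 7.26e-05) held 2.92, 3.26 and 2.78 RPPM on average in C nB. Near Hist1h2aa the C BMPC libraries held 3, 1 and 0 reads, which is at or under the floor, so that these 3 values depend on the pseudocount, and each was short of 2-fold with a pseudocount of 5 RPPM (-0.43, -0.58 and -0.57). The Hist1h1e call was lost as well when any of 5 of the 6 C libraries of nB and BMPC was left out, at adjusted p of 0.0111 to 0.0357, and kept without nB replicate 1.

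From GCB to BMPC in C mice, 4 regions were called higher and 1 lower, against 11.3% and 19.1% of all regions. Without the limit on size, 12 rose and 7 fell, against 18.1% and 21.4%, and among the start regions 8 rose and 6 fell, against 32.9% and 10.8% of the other start regions. The C libraries did not overlap in 28 regions higher and 10 lower in BMPC, against 32.5% and 36.1% of all regions. The median log2 fold change was 0.17 over the 48 regions and 0.28 over the other start regions. The direction here depended on the scaling. Under promoter centring 1 region was called higher and 2 lower, 4 rose and 16 fell, and the median was -0.26, and with TMM scaling 14 rose and 2 fell. Promoter centring shifted the median of all regions from -0.06 to -0.49 in this comparison, from 0.05 to 0.34 from nB to GCB and from 0.03 to -0.11 from nB to BMPC. From nB to GCB it left 1 region called higher and 4 lower, with 3 risen, 13 fallen and a median of -0.27, and from nB to BMPC it gave 1 called higher and 6 lower with a median of -0.44.

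Besides Hist1h1a, the regions called higher in BMPC than in GCB were 3 distal regions of the Hist1 cluster that were called lower from nB to GCB. The region 8667 bp from the H2A gene Hist1h2ah held 21.9, 21.7 and 24.4 RPPM in C nB, 7.92 and 4.22 in C GCB and 20.4, 21.7 and 21.2 in C BMPC. The GCB libraries lay far below the others. The log2 fold change was -1.79 ± 0.252 to GCB (limma adjusted p = 1.89e-06) and 1.70 ± 0.252 from GCB to BMPC (adjusted p = 2.55e-06). A region 6030 bp from the same start had 25.6, 30.0 and 29.2 RPPM in C nB, 13.2 and 12.6 in C GCB and 27.7, 25.4 and 28.3 in C BMPC (-1.07 ± 0.169 and 1.01 ± 0.169, limma adjusted p = 1.02e-05 and 1.31e-05). The region 4806 bp from the H2B gene Hist1h2bl held 71.1, 57.8 and 62.9, then 29.0 and 21.1, then 58.4, 46.0 and 57.6 RPPM (-1.33 ± 0.151 and 1.09 ± 0.151, limma adjusted p = 6.43e-08 and 9.43e-07). Under promoter centring the rises of the last 2 regions were 0.58 and 0.65, and without C pool M1 they were 0.99 and 0.86, short of 2-fold. The rise 6030 bp from Hist1h2ah was also short of 2-fold without BMPC replicate 1 (0.999) or 3 (0.98). The region called lower in BMPC than in GCB lay near Hist1h2aa. It held 0.390, 0.182 and 0 RPPM in C BMPC (3, 1 and 0 reads), against 3.52 and 2.81 RPPM in C GCB (8 and 6 reads). This call was lost with the replicate block of GCB pools (-1.39, limma adjusted p = 0.0236) and with a pseudocount of 5 RPPM (-0.65).

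Without the limit on size, 12 of the 48 regions were lower in GCB than in both nB and BMPC, 12 were higher in nB than in both other types, 4 were lower in BMPC than in both others, and 8 passed in none of the 3 comparisons. Of the 32 start regions, 8 (25.0%) were lower in GCB than in both others, against 18.5% of the other start regions. Those higher in nB than in both others were 9 (28.1%) against 3.88%, those lower in BMPC than in both others were 3 (9.38%) against 5.07%, and those that passed nowhere were 4 (12.5%) against 37.3%. The start regions higher in nB were Hist1h1b (670 bp from the start), Hist1h1d, Hist1h2ac, Hist1h2be, Hist1h2bh, Hist1h4a, Hist1h4b, Hist1h4d and Hist1h4f. By their paired genes these include each class but H3, but the Hist1h4a region also holds the start of the H3 gene Hist1h3a. The region paired with the H3 gene Hist1h3d was higher in nB as well and holds its annotated start. It was not among the start regions because its deposited distance exceeded 1000 bp. The counts of these patterns depend on the scaling. Under promoter centring 4 of the 48 regions and 1 of the 32 start regions rose from GCB to BMPC, so that no more than these could be lower in GCB than in both others, and 13 and 7 fell from nB to GCB, so that no more than these could be higher in nB than in both others. Hist1h2bh and Hist1h4b also belong to the regions lowest in GCB and in BMPC, respectively.

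By class of the paired gene, among start regions, 3 of 4 H1, 5 of 8 H2A, 3 of 7 H2B, 2 of 5 H3 and 6 of 8 H4 regions fell from nB to GCB in C mice, with median log2 fold changes of -0.89, -0.51, -0.40, -0.40 and -0.56. From nB to BMPC the numbers that fell were 2, 1, 6, 1 and 5, with medians of -0.23, -0.25, -0.52, -0.20 and -0.50. From GCB to BMPC 1 H1 region rose and none fell (median 0.50), 3 H2A regions rose and 1 fell (0.27), 2 H2B regions rose and 1 fell (-0.14), 1 H3 region rose and 3 fell (-0.52), and 1 H4 region rose and 1 fell (-0.13). Under promoter centring 1 of the 32 start regions rose and 14 fell in this last comparison. The classes hold 4 to 8 regions each and the differences between them were not tested. They follow the paired gene only, although 11 regions hold at least 2 starts, of different classes. The regions paired with Hist1h2ac and Hist1h3c also hold H2B starts, for example, and that of Hist1h4a an H3 start. That of Hist1h2be, counted under H2B, also holds the start of the H1 gene Hist1h1e. The Hist1h3d region fell from nB to GCB and to BMPC but is not counted under H3, because of its deposited distance.

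**Figure D3:**
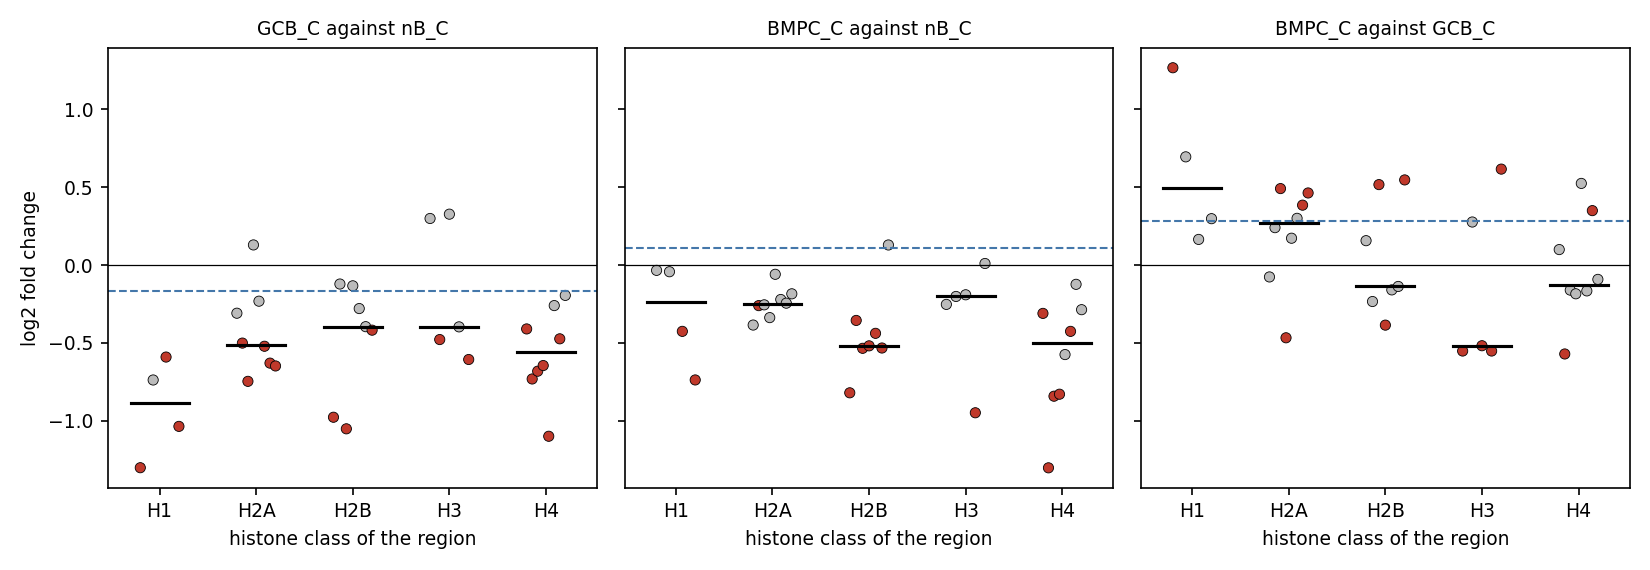
Each point is 1 of the 32 histone regions within 1000 bp of a start, placed by the histone class of its paired gene (x axis) and log2 fold change between C groups (y axis). Some regions also hold a start of another class. Red points passed the adjusted p, black bars are class medians and the dashed blue line is the median of all other regions within 1000 bp of a start. In the left and middle panels every class median lies below the dashed line, and in the right panel the H3 median is the lowest.

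The comparisons between cell types in KO mice used other libraries. From nB to GCB, 9 regions were called lower and 1 higher in KO mice, against 7.84% and 18.4% of all regions, and 37 fell and 1 rose without the limit on size, against 15.8% and 21.0%. All 27 regions that fell in C mice were among these 37. Of the 9 regions called lower in each genotype, 6 were shared, namely both Hist1h1a regions, Hist1h1d, the distal Hist1h2ah regions and the region 492 bp from Hist1h4h. With TMM scaling 14 regions were called lower and 1 higher, and under promoter centring 1 of each, with 17 fallen and 2 risen. From nB to BMPC 8 regions were called lower and 1 higher in KO mice, against 16.9% and 18.4% of all regions, and 21 fell and 1 rose, against 18.7% and 20.6%. Of the 21 that fell in each genotype 19 were shared. The same overlaps over all regions are not given here, so that these cannot be read as particular to the histone regions. From GCB to BMPC 2 regions were called higher and 1 lower, against 12.1% and 19.9%, and 11 rose and 5 fell, against 20.1% and 22.6%. Under promoter centring none was called higher and 4 lower, with 1 risen and 19 fallen. The median log2 fold changes were -0.65, -0.38 and 0.14. Under promoter centring the first was -0.34, against 0.12 over the other start regions, and the last was -0.31, against -0.14.

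The values in KO mice followed those of C mice at the linker histone genes. Hist1h1a held 35.5 and 35.0 RPPM in KO nB, 12.1, 15.3, 18.0 and 13.3 in KO GCB and 29.0 and 28.6 in KO BMPC. Hist1h1d held 99.4 and 91.1, then 30.8, 37.6, 33.3 and 38.5, then 51.6 and 52.8 RPPM. At each gene all 4 KO GCB libraries lay below the other KO libraries, with log2 fold changes from nB of -1.23 ± 0.184 and -1.42 ± 0.114 (limma adjusted p = 4.26e-06 and 1e-10).

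**Figure D4:**
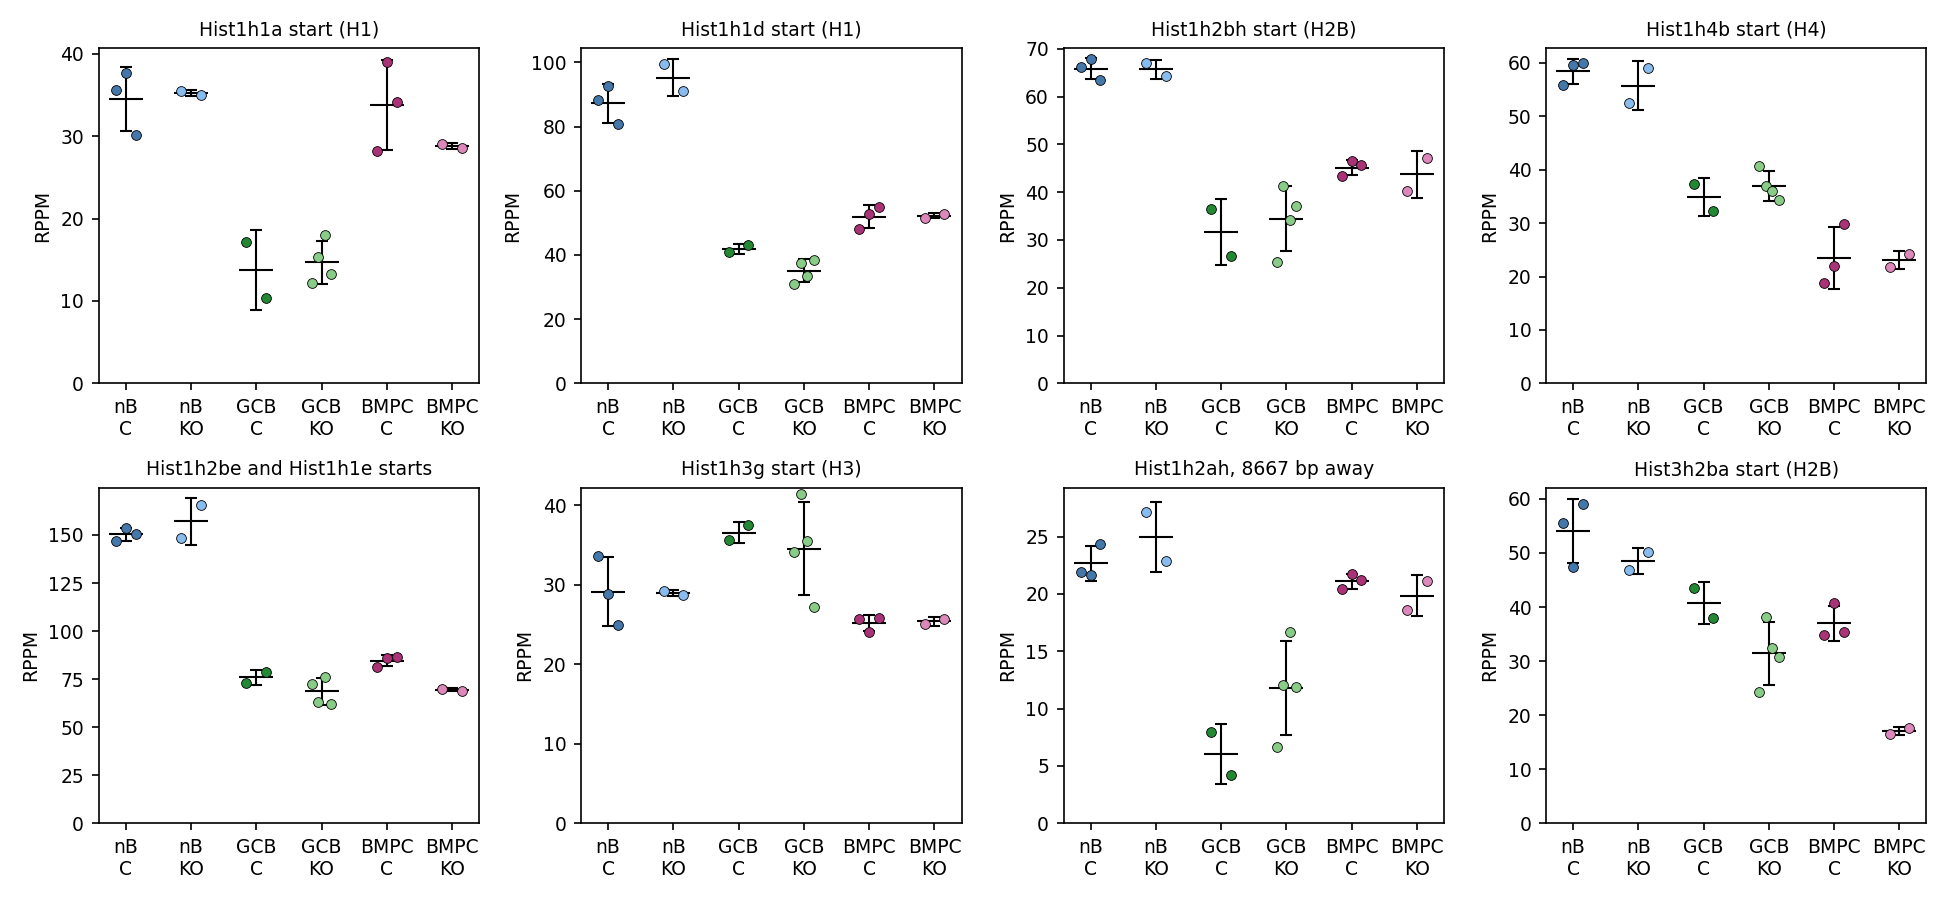
RPPM (y axis) in every library at 8 regions, with groups on the x axis and the bar and whiskers giving the group mean ± SD. Hist1h1a and the distal Hist1h2ah region are low in GCB, Hist1h4b is lowest in BMPC, the region over Hist1h2be and Hist1h1e is highest in nB, and both KO BMPC libraries of Hist3h2ba lie below all other libraries.

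To test whether Dnmt3 loss altered these regions, KO was compared with C within each cell type. In nB none of the 48 regions and 0 of 66177 regions were called by limma (0.0%), and none of the 48 had an unadjusted p under 0.05, against 1.67% of all regions. The log2 fold changes of the 48 lay between -0.41 and 0.39 with a median of 0.05. The same comparison gave no call among the 48 with edgeR's quasi-likelihood or likelihood ratio test or with DESeq2. In GCB none of the 48 regions was called, against 0.0317% of all regions, with limma or with those tests, and 3 higher and 6 lower had an unadjusted p under 0.05, against 11.8% of all regions in either direction. In BMPC 1 of the 48 was called, lower in KO, against 0.0136% of all regions called lower and 0.0907% called higher, and 4 lower had an unadjusted p under 0.05, against 9.55% of all regions.

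The called region was that of Hist3h2ba, an H2B gene of the Hist3 cluster (chr11:58761816-58762794, over its start). It held 34.9, 40.7 and 35.3 RPPM in C BMPC and 16.5 and 17.5 in KO BMPC, from 268, 223 and 227 reads and from 136 and 94 reads. The KO libraries did not overlap the C libraries and were the lowest of all 16. The log2 fold change was -1.07 ± 0.158 (limma adjusted p = 0.00194), and it was -1.19 with edgeR's quasi-likelihood test and -1.17 with DESeq2. Without C BMPC replicate 2 the adjusted p was 0.0165, and without KO BMPC replicate 1 or 2 it was 0.0457 or 0.0662, so that the call rests on each of these libraries. With a pseudocount of 5 RPPM the value was -0.93, short of 2-fold. In nB this region held 55.5, 47.5 and 59.0 RPPM in C and 46.9 and 50.2 in KO. In GCB it held 43.5 and 37.9 in C and 24.2, 38.2, 32.4 and 30.8 in KO. Libraries overlapped between genotypes in both types (-0.15 ± 0.158 and -0.38 ± 0.149, limma adjusted p = 1.0 and 0.308). The interaction of genotype with the change from nB to BMPC was -0.92 ± 0.223 and was not called by limma (adjusted p = 0.279), with 0.0% of all regions called. An unadjusted p under 0.05 was found for 3 of the 48 regions, all lower, against 5.24% of all regions. Each of the 2 edgeR tests and DESeq2 called 1 of the 48 regions lower in this interaction. The shares of all regions called by these tests are not given here, so that this count cannot be read against a background. The interaction with the change from nB to GCB gave no call among the 48 with any of the tests, and 0.0% of all regions were called by limma, while 4 of the 48 had an unadjusted p under 0.05, against 6.21% of all regions.

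No other member was called between genotypes. In nB the largest differences were -0.41 ± 0.284 at the region 7658 bp from Hist1h4m, 0.39 ± 0.244 near Hist2h2aa1 and -0.37 ± 0.3 near Hist1h1c (all limma adjusted p = 1.0). In GCB the region 8667 bp from Hist1h2ah held 7.92 and 4.22 RPPM in C and 6.61, 12.1, 16.7 and 11.9 in KO, which overlapped (0.85 ± 0.239, limma adjusted p = 0.134). The regions 6033 and 4302 bp from Hist1h4h were at -0.55 ± 0.308 and -0.53 ± 0.231 in GCB (limma adjusted p = 0.49 and 0.359). In BMPC the next largest were -0.42 ± 0.36 near Hist1h1e and -0.30 ± 0.416 at the region 5291 bp from Hist1h1a (limma adjusted p = 0.894 and 0.991), both on few reads. These values moved with single libraries. With 1 library left out the value near Hist1h4m in nB ranged from -0.95 to 0.14, that 8667 bp from Hist1h2ah in GCB from 0.46 to 1.23 and that 5291 bp from Hist1h1a in BMPC from -0.56 to 0.09.

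The Hist2 and Hist3 clusters were represented by 2 regions each. The Hist2h2ab region (chr3:96023132-96025413) holds the starts of Hist2h2ab, Hist2h2ac and Hist2h2be and was among the most open members, with 166, 152 and 154 RPPM in C nB, 104 and 95.6 in C GCB and 130, 135 and 150 in C BMPC. GCB lay below both other types, and the lowest nB library lay just above the highest BMPC library (-0.65 ± 0.102 from nB to GCB, limma adjusted p = 9.53e-06, and -0.18 ± 0.091 from nB to BMPC, adjusted p = 0.087). The other Hist3 region, paired with the pseudogene Hist3h2bb-ps and holding the start of Hist3h2a, had means of 102 ± 9.34, 75.6 ± 2.40 and 111 ± 3.73 RPPM in C nB, GCB and BMPC (SD, n = 3, 2 and 3). It thus did not show the decrease in BMPC of its neighbour Hist3h2ba, which fell from nB to BMPC in C mice by 0.53 on the log2 scale (limma adjusted p = 0.00203) and in KO mice by 1.46 (adjusted p = 6.82e-08).

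The only member that rose on leaving the nB state, to GCB and to BMPC alike, lay 7658 bp from the H4 gene Hist1h4m (chr13:21911274-21912175). It held 6.09, 4.90 and 3.54 RPPM in C nB, 10.6 and 15.5 in C GCB and 11.3, 17.3 and 14.3 in C BMPC, with nB below the others. The log2 fold changes were 1.26 ± 0.284 and 1.40 ± 0.254 (limma adjusted p = 0.000724 and 3.25e-05). Without C pool M1 the first did not pass (1.01, adjusted p = 0.0321). Of the 50-base stretches in this region 94.5% occur elsewhere in mm9, so that its reads cannot be assigned with certainty.

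Near-identical copies are common in these clusters. Of the 48 regions, 31 had more than 10% of their 50-base stretches repeated elsewhere in mm9, 11 had none, and the median was 18.8%. Start regions had a median of 28.1% and the others 2.07%. Reads from such stretches may have been placed on a copy, and the levels of these regions are uncertain to that extent. Among the 17 regions with at most 10% repeated, 5 of them within 1000 bp of a start, 9 fell and none rose from nB to GCB in C mice (median log2 fold change -0.74), against 18 and 1 of the other 31 (-0.47). From nB to BMPC 6 of the 17 fell and none rose (-0.23), against 15 and 1 of the other 31 (-0.34). Hist1h1a, Hist1h1b and Hist1h3g had no repeated stretch, whereas the share was 35.8% at Hist1h4b and 13.4% at Hist3h2ba.

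The regions between the first and the last member of each chromosome were compared next. On chromosome 13 this span includes the stretch from Hist1h2bj to Hist1h4h, in which no clustered histone gene is annotated. In these spans lay 54 further regions that were no members, 22 of which fell and none rose from nB to GCB in C mice (median log2 fold change -0.55), and 12 fell and 4 rose from nB to BMPC (-0.13). The members thus had a similar median to these other regions from nB to GCB (-0.57) and a lower one from nB to BMPC (-0.30), and this difference was not tested.

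Genes that act with histones were examined at the regions over their starts. Of 11 histone variant genes, which do not carry a Hist1 to Hist4 name, 9 had such a region. From nB to GCB in C mice 5 of these fell and none rose, against 25.1% and 12.8% of other start regions, among them H2afv (94.0 ± 4.17 to 54.3 ± 3.38 RPPM), H2afx (82.8 ± 7.10 to 49.0 ± 0.899) and H3f3a (110.5 ± 2.10 to 75.9 ± 3.999; SD, n = 3 and 2), at log2 fold changes of -0.78, -0.74 and -0.54 (limma adjusted p = 2.33e-06, 9.26e-05 and 0.000171). From nB to BMPC none fell and 1 rose, against 10.4% and 20.7% of other start regions. This was H1f0, the linker histone of non-dividing cells, which held 7.97 ± 1.81 RPPM in C nB, 6.36 ± 0.283 in C GCB and 23.2 ± 2.84 in C BMPC (SD, n = 3, 2 and 3). It was called higher in BMPC than in nB (1.45 ± 0.272, limma adjusted p = 4.81e-05) and than in GCB (1.71 ± 0.304, adjusted p = 3.12e-05), whereas no clustered H1 start region rose from nB to BMPC. In KO mice H1f0 did not pass from nB to BMPC (0.88, limma adjusted p = 0.0296) and was called higher in BMPC than in GCB (1.13, adjusted p = 0.00163).

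Of 12 genes for histone gene transcription and histone mRNA processing, 10 had a region at the start. From nB to GCB in C mice 5 fell and 1 rose, and from nB to BMPC 1 fell and 1 rose, against 25.1%, 12.8%, 10.4% and 20.7% of other start regions in this order. Slbp, whose product binds the histone mRNA stem-loop, held 96.7 ± 5.64, 60.9 ± 4.64 and 97.5 ± 1.37 RPPM in C nB, GCB and BMPC (SD, n = 3, 2 and 3). Under promoter centring the log2 values of these lists from nB to GCB move up, and those from GCB to BMPC down, by the shifts given above. Slbp fell by 0.66 on the log2 scale from nB to GCB (limma adjusted p = 2.62e-05) and rose by 0.67 from GCB to BMPC (adjusted p = 1.25e-05). Cpsf3, the nuclease that cuts histone pre-mRNA, fell by 0.89 from nB to GCB and by 0.93 from nB to BMPC (limma adjusted p = 0.000717 and 6.58e-05). Of 12 histone chaperone genes 9 had a region, of which 2 fell and none rose from nB to GCB and none fell and 1 rose from nB to BMPC, which is read against the same shares. None of the regions of these lists passed in a comparison of KO with C in any cell type.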

How the data were processed

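Sequencing reads were trimmed, mapped to mm9 and counted by the authors, who called peaks in each sample and deposited RPM values, called RPPM (reads per 1000000 reads in all regions), over the union of regions. The submitters' processing notes name Bowtie 1.1.1, Picard 1.127, MACS2 2.1.0.20140616 and edgeR 3.12.1. Mapping used default options, and the treatment of reads with several equal placements is not given in the sources used here. The authors left out 1 KO BMPC library for an aberrant number of reads in regions, and it was not analysed here. The deposited log2 fold changes and log2 CPM, the likelihood ratio score and the p-value and FDR columns are the authors' own comparisons and were not used.

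All RPPM values were whole multiples of the value of 1 read in 100% of cells (tolerance 0.001), and these reads served for depth and for edgeR 4.0.16 and DESeq2 1.42.0. Groups were tested on log2(RPPM + 1) with limma 3.58.1 (R 4.3.3), with a mean for each group, all 16 libraries in 1 fit and a trend of variance on mean, tested on simulated data. Cell type and genotype labels defined the groups. No source states whether same-group libraries shared a litter or day, so p-values measure the spread between these libraries. Values after ± are the SD of a group's libraries or the SE of the limma fit, which both rest on the spread between libraries. Floors of 3 reads cover counting error only, and reads carry no molecular identifiers. Alternatives were pseudocounts of 0.1 and 5 RPPM, a mean of at least 1 RPPM, TMM, promoter centring, only the groups compared, the 3 count tests, an adjusted p of at most 0.05, each library left out and a replicate block of the GCB pools.

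Sequences and starts were read from the NCBIM37 genome (mm9) and GENCODE M1. A 50-base stretch was called repeated when it or its complement occurred elsewhere in that genome. Members and gene lists were chosen with earlier results of these data known. Regions were named by rule: the 5 called members with the largest increase and decrease in each C comparison of cell types, the most and least open start region of each class, every called member and the 3 largest changes of KO against C, and the Hist2, Hist3 and Hist4 members. Hist1h2be, Hist1h2bh, Hist1h2ae, Hist1h3h, Hist1h3g, Hist1h3b and Hist1h2af changes, pattern lists, the cell type markers named and the variant and processing genes named beyond H1f0 were chosen after their values were seen. Plots were drawn with matplotlib 3.10.9. A germinal center marker and the gene carrying the Cre allele are not reported here.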

Additional observations from a re-analysis of the deposited data

Results flagged for a closer look

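No library stood apart by Dixon's criterion in the only group of 4 libraries, KO GCB, at any of the 48 regions, where chance alone marks about 1 in 20 groups. No difference between cell types in the effect of genotype was called by limma among these regions.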

How the results depend on the processing

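The number of called regions depended on the pseudocount, the scaling and single libraries. With a pseudocount of 5 RPPM it was 3, 1 and 2 in the C comparisons from nB to GCB, from nB to BMPC and from GCB to BMPC (10, 6 and 5 at 1 RPPM), 4 and 0 in KO mice from nB to GCB and from GCB to BMPC (10 and 3), and 0 for KO against C in BMPC (1). Under promoter centring it was 5 from nB to GCB and 3 from GCB to BMPC in C mice and 2 from nB to GCB in KO mice. With only the groups compared it was 1 from GCB to BMPC in KO mice. In the interaction of genotype with nB to BMPC it was 1 with edgeR's quasi-likelihood test, 1 with its likelihood ratio test and 1 with DESeq2, against 0 with limma. The shares of all regions called there by edgeR and DESeq2 are not given. With each library left out the number of called regions ranged from 7 to 9, 5 to 6 and 2 to 6 in the 3 C comparisons, from 8 to 11, 6 to 10 and 0 to 4 in the KO comparisons, and from 0 to 1 for KO against C in BMPC. It was 2 from GCB to BMPC without C pool M1, and from GCB to BMPC in KO mice it was 0 without KO BMPC replicate 1. The causes of these moves were not tested. Of 185 such counts under alternatives 166 were within 1.5 times the main count, and no named region reversed a call. Many of the 166 were counts of 0 against a main count of 0, for KO against C in nB and GCB and for the interactions. They say little about the comparisons that held calls.

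GCB pools named F2 and M1 exist in C and in KO mice. Deviations of same-named pools from their group means correlated at 0.036 (F2) and 0.064 (M1). The deviations of the 2 C pools mirror each other, so these values cannot show whether same-named pools shared a day or litter. With the replicate block the number of called regions was 10, 4, 11 and 1 for nB to GCB and GCB to BMPC in C and in KO mice (10, 5, 10 and 3 without it). In GCB libraries, the shallowest, the least covered start region held 6 reads.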
